A study of Mus musculus with 6 samples.

Results

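The miR-219 and miR-338 miRNAs were followed in extracellular vesicles from mouse brain, as all entries of the miRNA table named miR-219a, miR-219b, miR-219c or miR-338, with both arms of each hairpin. The rule found 9 entries of 1926. Of these 5 were above 0 in at least 1 of the 6 libraries, 4 were at 0 in all of them, and 2 reached a mean of 10 RPM, reads scaled to a total of 1000000 per library. MicroRNAs (miRNAs) are short RNAs that guide the silencing of messenger RNAs, and extracellular vesicles are membrane-bound particles released by cells. The SE group is 3 libraries of brain-derived vesicles from mice after status epilepticus, a prolonged seizure, and the CON group is 3 libraries of such vesicles from matched control mice. A time of 24 hr stands in the series title. Strain, genotype, sex, age and the way of inducing seizures are not given in the sources used here. Nothing says whether a library is 1 animal or a pool, so p-values reflect the spread among these libraries alone, and that spread may be technical.

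The libraries held 5482407 to 10845434 miRNA reads, of which let-7 miRNAs and miR-98 took 77.5% to 81.4%. The CON columns of the deposited table do not follow its row names, and every CON value below was put back under its name by way of the base means in the authors' deposited fold change table. For miR-338-3p, miR-338-5p, miR-219a-1-3p and miR-219a-2-3p exactly 1 CON row matched each. The log2 fold change of the same table was then within 0.1 of the log2 ratio of normalized means for 316 of 316 miRNAs. These had a base mean of at least 50, and under the names as deposited it held for 105 of 316. Rows were matched on CON totals that the base means fix. The first count therefore bears on those totals and not on the choice of row. Strong fold changes also picked the miRNAs used to scale the SE reads, so the quantity was not fully separate. Directions rest on the names of the columns, which were not checked against any other measurement.

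A miRNA hairpin can release a strand from each side, the 5p and the 3p arm, and the bases near the 5′ end of the released strand, the seed, choose the messenger RNAs it pairs with. miR-219 and miR-338 are known for their rise as oligodendrocyte precursors mature into myelin-forming cells, where they repress genes that keep the precursors dividing or block differentiation, among them Pdgfra, Sox6, Hes5 and Zfp238. Most such work on miR-219 concerns the 5p arm, which 2 separate hairpins share. Their known cell type is background here, since vesicles of different brain cells were not separated in these libraries.

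The hairpins are printed because the results turn on which side of each was found. Sequences and positions are those of RefSeq on GRCm38.p6, and the submitters' processing notes name mm9, so these positions are not those of the authors' build. Mir338 lies at chr11:120014765-120014862 on the minus strand, in an intron of Aatk, a protein-coding gene on the same strand, and no exon of Aatk in GENCODE M21 overlaps it. Mir219a-1 lies at chr17:34024983-34025092 on the minus strand, between Ring1 and H2-Ke6, and overlaps an exon of the lincRNA Gm26940. Mir219a-2 lies at chr2:29845631-29845727 on the minus strand, outside protein-coding genes, 629 bp from Urm1. RefSeq's table held a mature sequence for 8 of the 9 members, miR-219a-2-3p being the other. Capitals mark the mature arms in that table.
Mir338: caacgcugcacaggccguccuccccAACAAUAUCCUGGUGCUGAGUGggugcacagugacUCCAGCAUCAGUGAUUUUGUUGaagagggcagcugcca
Mir219a-1: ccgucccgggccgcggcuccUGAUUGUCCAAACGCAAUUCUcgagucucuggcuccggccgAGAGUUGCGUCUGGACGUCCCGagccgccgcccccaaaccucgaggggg
Mir219a-2: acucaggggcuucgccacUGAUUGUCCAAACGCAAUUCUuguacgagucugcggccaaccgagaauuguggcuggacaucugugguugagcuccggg

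The same 3 loci are annotated with hairpins on the opposite strand: Mir3065 opposite Mir338, Mir219c opposite Mir219a-1 and Mir219b opposite Mir219a-2. The mature arms below carry their seeds, bases 2 to 8, in capitals. The 8 members with a mature sequence have 8 different seeds, so no pair of them shares a seed.
miR-338-3p: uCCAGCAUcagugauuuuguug
miR-338-5p: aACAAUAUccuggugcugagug
miR-219a-5p: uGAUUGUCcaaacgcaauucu
miR-219a-1-3p: aGAGUUGCgucuggacgucccg
miR-3065-5p: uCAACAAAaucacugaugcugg
miR-219b-3p: aGAAUUGCguuuggacaaucagu
miR-219c-3p: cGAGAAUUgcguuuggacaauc
Over the positions they share, opposite arms are exact reverse complements of each other. miR-338-3p and miR-3065-5p share 21 bases, miR-219a-5p and miR-219b-3p share 21, and miR-219a-5p and miR-219c-3p share 20.

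miR-338-3p was the leading member in all 6 libraries and made up 80.4% to 90.9% of the reads of all members. SE replicates 1, 2 and 3 held 262, 291 and 214 RPM of it, from 2842, 1750 and 1430 reads. CON replicates 1, 2 and 3 held 395, 269 and 424 RPM, from 2212, 1474 and 2761 reads. The CON replicates 1 and 3 lay above all SE libraries, and CON replicate 2 lay between SE replicates 1 and 2, so the groups overlapped. By level it ranked between 68th and 82nd in the libraries.

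Mean levels of miR-338-3p were 256 ± 38.97 RPM (SD, n = 3) after status epilepticus and 363 ± 82.7 RPM (SD, n = 3) in controls, and the difference did not pass the test. SE minus CON was -0.49 (standard error 0.22, 95% interval -0.95 to -0.03, unadjusted p = 0.0395, adjusted p = 0.498 over 290 miRNAs) by limma-trend, on the log2(RPM + 1) scale, which understates changes of low miRNAs. At an adjusted p under 0.05, 0 of the 2 tested members were called, beside 1.03% of all tested miRNAs. At an unadjusted p under 0.05 1 of the 2 was, beside 9.31% of all tested miRNAs, and miR-338-3p ranked 23rd of 290 by that p. This unadjusted p was not under 0.05 in 4 of 6 fits with 1 library left out, such as 0.152 without CON replicate 3, nor in 5 of 11 other settings, such as 0.0536 with the replicate number as a block and 0.204 with quantile normalization. With quantile normalization the difference was -0.29. In a bulk preparation, fewer vesicles from a cell type and fewer copies per vesicle cannot be told apart.

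**Figure D1:**
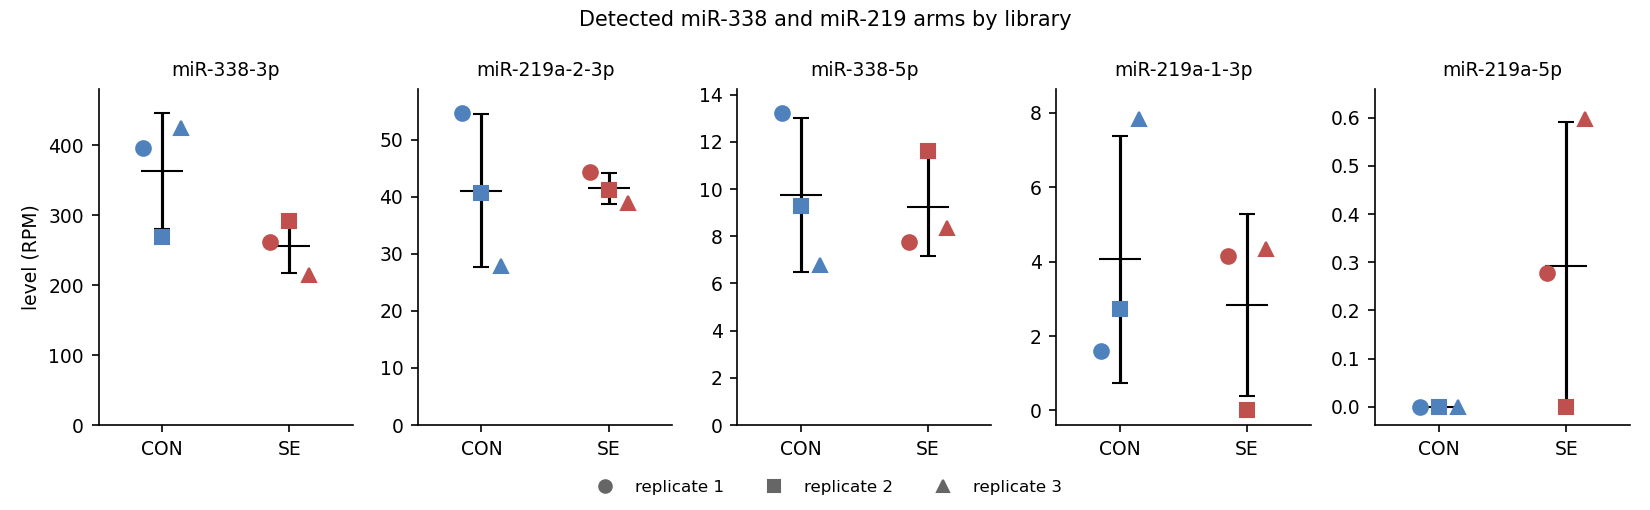
Level in RPM (vertical axes from 0 or just under it, a different scale for each miRNA) of the 5 detected members in the 3 CON and 3 SE libraries; points are libraries with 1 symbol per replicate number, and the bar and whiskers are the group mean and SD. The groups overlap for each of the 5, and CON replicate 3 is the highest library for miR-338-3p and the lowest for miR-219a-2-3p and miR-338-5p.

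miR-219a-2-3p, from the 3′ side of Mir219a-2, came next in level and was nearly level in the SE libraries. SE replicates 1, 2 and 3 held 44.4, 41.2 and 38.9 RPM of it, from 481, 248 and 260 reads. CON replicates 1, 2 and 3 held 54.7, 40.7 and 27.8 RPM, from 306, 223 and 181 reads. The CON libraries held both the highest and the lowest value, with all SE values between them.

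Mean levels of miR-219a-2-3p were 41.5 ± 2.75 RPM (SD, n = 3) after status epilepticus and 41.1 ± 13.4 RPM (SD, n = 3) in controls, and no difference passed the test. SE minus CON was 0.06 on the log2(RPM + 1) scale (standard error 0.25, 95% interval -0.46 to 0.59, limma adjusted p = 0.961). The interval leaves room for a difference in either direction. Without CON replicate 3 the difference was -0.18. Its SD was 6.64% of the mean in SE libraries, where the median over tested miRNAs was 15.3%, and 32.7% in CON libraries, where that median was 17.2%.

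**Figure D2:**
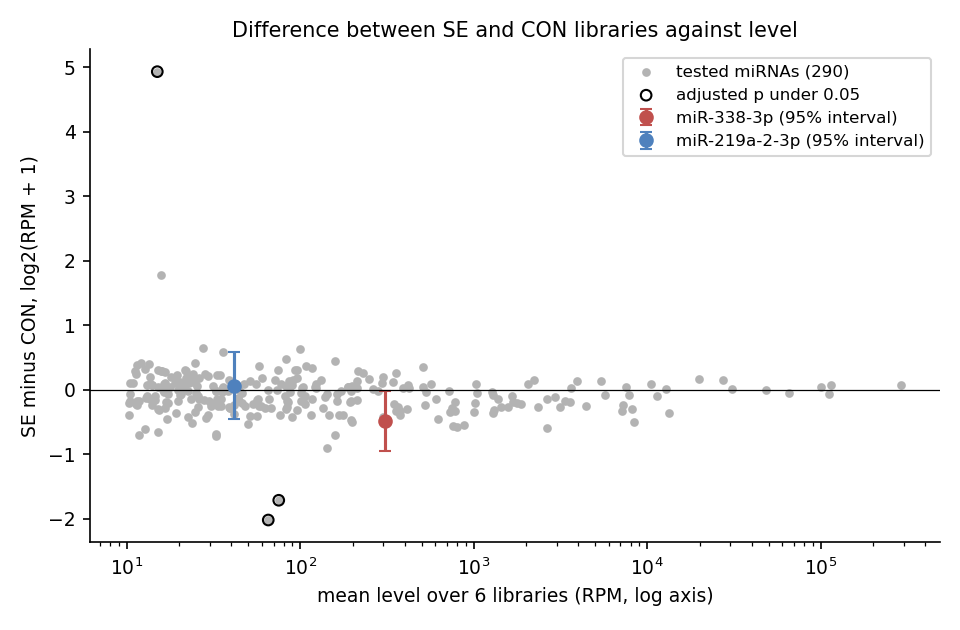
SE minus CON difference on the log2(RPM + 1) scale (vertical axis) against the mean level over the 6 libraries (horizontal log axis, RPM) for the 290 tested miRNAs; coloured points with 95% intervals are miR-338-3p and miR-219a-2-3p, and open circles are the 3 miRNAs with an adjusted p under 0.05. miR-338-3p lies at -0.49 and miR-219a-2-3p at 0.06, and neither is among the 3.

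miR-338-5p, the other arm of Mir338, was detected in all 6 libraries below the level set for testing. It stood at 7.75, 11.6 and 8.37 RPM in SE and 13.2, 9.30 and 6.76 RPM in CON replicates 1, 2 and 3, from 44 to 84 reads each. The 2 groups covered much the same range. With a filter of 5 RPM, chosen after the data were examined, SE minus CON was -0.05 (standard error 0.30) with a limma adjusted p of 0.985 over 363 miRNAs.

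The 3p arm of Mir338 outnumbered its 5p arm by 32.9 reads to 1 when all libraries were pooled. Per library the ratio was 33.8, 25 and 25.5 for the SE libraries and 29.9, 28.9 and 62.8 for the CON libraries, each in the order of replicates 1, 2 and 3. The ratio of CON replicate 3 was the highest, and the other 5 lay close together. The 3p share was 98.4% in CON replicate 3 (exact 95% binomial interval 97.9% to 98.9%), and in the others it ran from 96.2% (95.2% to 97.0%) in SE replicate 2 to 97.1% (96.5% to 97.7%) in SE replicate 1. These intervals, and the floors below, cover counting error only. The log2 ratio differed between groups by -0.44, from 5.24 ± 0.63 (SD, n = 3) in CON to 4.80 ± 0.24 (SD, n = 3) in SE, and an exact permutation test, two-sided, gave p = 0.4, a test that cannot go below 0.1 with 3 against 3. Without CON replicate 3 this difference was -0.08.

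The miR-219 reads came almost wholly from the 3′ sides of the hairpins. Of 1855 reads of miR-219 entries in the 6 libraries, 1699 belonged to miR-219a-2-3p, 149 to miR-219a-1-3p and 7 to miR-219a-5p. miR-219a-5p, the first run of capitals in both Mir219a hairpins above, was found with 3 reads in SE replicate 1 (0.277 RPM) and 4 in SE replicate 3 (0.598 RPM). It was at 0 in SE replicate 2 and in all 3 CON libraries, which over the CON group allows a level of up to 0.171 RPM, that of 3 reads, with each 0 taken as no reads. The CON zeros follow from a second-group total of 0 in the authors' deposited table. With so few reads no difference between the groups was detectable at this depth. The lowest value of each library stood for 2 reads, so a listed 0 may also hide a single read.

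miR-219a-1-3p, from the 3′ side of Mir219a-1, varied more between libraries than the arms of Mir338 and miR-219a-2-3p did, with an SD of 86.7% of the mean in SE and 81.8% in CON libraries. It had 45, 0 and 29 reads in SE replicates 1, 2 and 3, which is 4.15, 0 and 4.33 RPM. In CON replicates 1, 2 and 3 it had 9, 15 and 51 reads, which is 1.61, 2.74 and 7.84 RPM. It took 22.0% of the miR-219 reads in CON replicate 3 and 0% to 9.90% in the other 5 libraries. Correspondingly the share of miR-219a-2-3p was 78.0% in CON replicate 3 (exact 95% interval 72.1% to 83.2%) and 88.7% to 100% elsewhere. miR-219a-1-3p was not tested with the filter, and its groups overlapped.

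**Figure D3:**
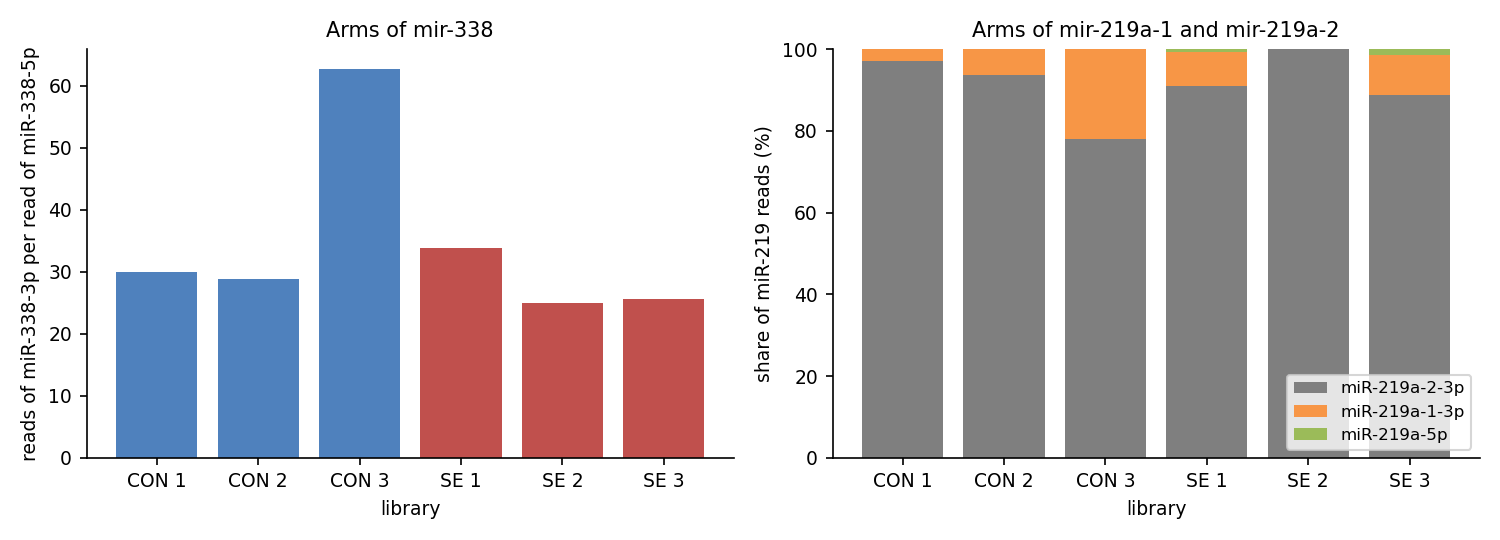
Left, reads of miR-338-3p per read of miR-338-5p in each library, with bars from 0, blue for CON and red for SE; right, the share of all miR-219 reads taken by miR-219a-2-3p, miR-219a-1-3p and miR-219a-5p (percent). CON replicate 3 has the highest ratio, 62.8, and the largest share of miR-219a-1-3p, 22.0%.

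No read was counted for miR-219b-5p, miR-219b-3p, miR-219c-5p or miR-219c-3p, the arms from the strands opposite the Mir219a hairpins. With each 0 taken as no reads, a count of 0 in 41133382 reads allows each of them up to 0.0729 RPM. A single hidden read in each of the 6 libraries would already be 0.146 RPM. Opposite Mir338, miR-3065-5p had 6 reads in SE replicate 3 (0.897 RPM) and 0 in the other 5 libraries, and miR-3065-3p had 0 in all 6. At each of the 3 loci nearly all reads thus lay on the strand of Mir338, Mir219a-1 or Mir219a-2.

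In order of mean level the members ran from miR-338-3p (309 RPM over the 6 libraries, 75th of all miRNAs) through miR-219a-2-3p (41.3 RPM, 174th) and miR-338-5p (9.51 RPM, 295th) to miR-219a-1-3p (3.44 RPM, 406th) and miR-219a-5p (0.146 RPM, 729th). All are 21 to 22 bases long where RefSeq's table gives a sequence, so reads were compared without a length correction, and capture efficiency per sequence was not tested. The first 3 kept this order in every library. miR-338-5p stood above miR-219a-1-3p in 5 libraries and below it in CON replicate 3, with 44 against 51 reads. The members together made up 0.0357% of all miRNA reads.

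The authors' deposited table calls none of the 5 detected members. The direction of its fold changes is not named there. A positive value is read here as a higher level in CON. For miR-338-3p the deposited 0.397 stood beside 0.396 for the log2 ratio of CON to SE normalized means. This reading rests on the names of the columns. In the authors' deposited table miR-338-3p has a log2 fold change of 0.40 (standard error 0.20), with p = 0.0478 and an adjusted p of 0.965. The values for miR-219a-2-3p, miR-338-5p and miR-219a-1-3p in the authors' deposited table are -0.12 (standard error 0.29), -0.04 (0.43) and 0.42 (1.41), with adjusted p of 0.975, 0.990 and 0.975. miR-219a-5p, at -3.36 (3.95) in the authors' deposited table, rests on the 7 reads given above. Of its 772 miRNAs with a p-value, the authors' deposited table calls 1.04% at an adjusted p under 0.05, and 5.05% have an unadjusted p under 0.05, miR-338-3p among them. These values come from the same libraries as the test above and are not separate evidence.

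Over all 6 libraries miR-338-3p and miR-219a-2-3p did not vary together, and CON replicate 3 was the highest for the first and the lowest for the second. Among the other libraries both were highest in CON replicate 1 (395 and 54.7 RPM) and lowest in SE replicate 3 (214 and 38.9 RPM). Likeness was measured as the root mean square difference between 2 profiles of log2(RPM + 1), each centred on its own mean over the 6 libraries. Between these members it was 0.478, and 226 of the 289 other tested miRNAs were closer to miR-338-3p than miR-219a-2-3p was. The miRNAs most like miR-338-3p were miR-126a-5p (0.0815), miR-29c-3p (0.117), miR-335-5p (0.142), miR-126a-3p (0.148) and miR-30e-3p (0.150). Each of these 5 was high in CON replicates 1 and 3 and lower in CON replicate 2. This follows largely from choosing them by likeness over the same 6 libraries. None of them passed the limma test (adjusted p from 0.231 to 0.641). miR-126a is enriched in endothelial cells and miR-29c belongs to a family abundant in astrocytes.

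Most like miR-219a-2-3p were miR-935 (0.0839), miR-574-3p (0.0911), miR-667-3p (0.114), miR-328-3p (0.118) and miR-222-3p (0.135). All 5 had their highest value in CON replicate 1 and their lowest in CON replicate 3, as miR-219a-2-3p did, which their choice by likeness makes likely. Their limma adjusted p ran from 0.895 to 0.979.

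**Figure D4:**
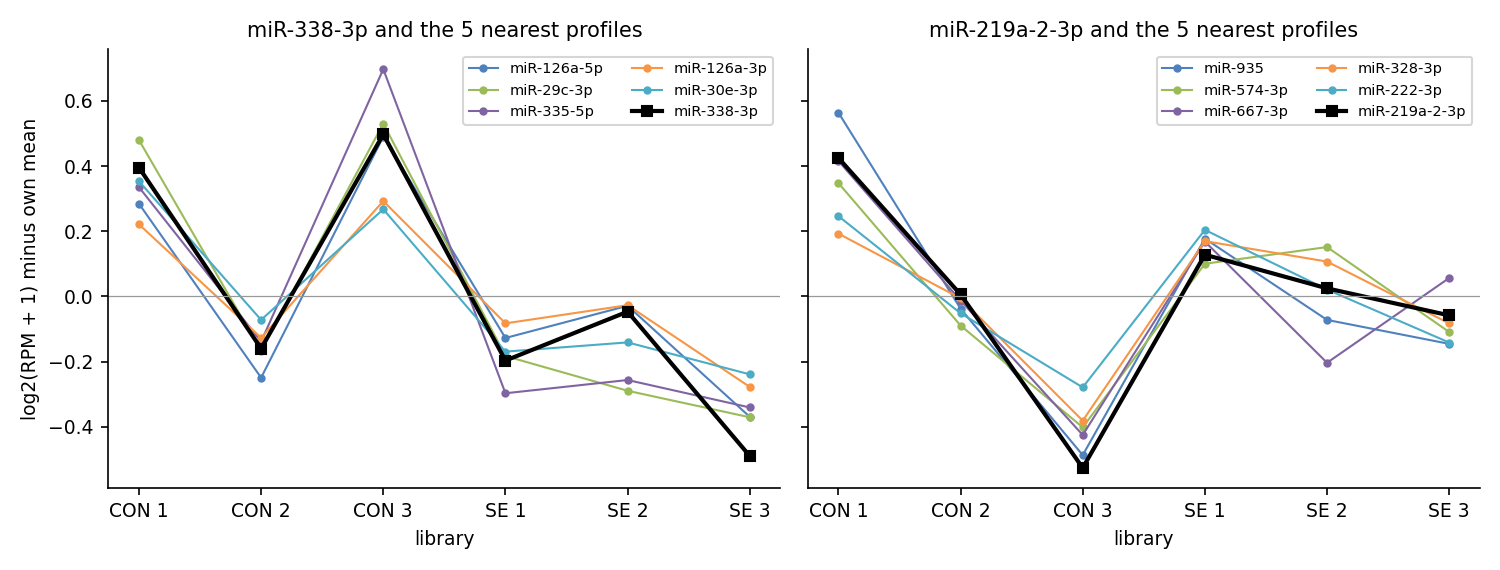
log2(RPM + 1) minus its own mean over the 6 libraries (vertical axis) in each library (horizontal axis) for miR-338-3p, left, and miR-219a-2-3p, right, in black, with the 5 miRNAs of the nearest profiles in colour; lines join values of 1 miRNA and imply no order of libraries. In CON replicate 3 the left profiles are high and the right profiles are at their lowest.

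The neighbours of the 2 members differed in base composition, which is shown by 2 of each set, again with seeds in capitals.
miR-29c-3p: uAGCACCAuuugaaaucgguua
miR-335-5p: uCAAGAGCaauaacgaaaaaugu
miR-935: cCCAGUUAccgcuuccgcuaccgc
miR-667-3p: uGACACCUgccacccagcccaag
G and C made up 40.9% of the bases of miR-338-3p and 30.4% to 45.5% of those of the 4 of its 5 neighbours with a sequence in RefSeq's table. For the 4 such neighbours of miR-219a-2-3p the share was 52.2% to 66.7%. No share was computed for miR-219a-2-3p itself, which has no mature sequence there, and its neighbours do not stand in for it. The median over 241 of the 290 tested miRNAs was 50%. These 241 miRNAs share the 6 libraries. Their GC share was compared with the log2 level of each CON library minus the mean of the other CON libraries. The Spearman correlation was -0.39 for CON replicate 3, 0.53 for CON replicate 2 and -0.12 for CON replicate 1. These differences depend on each other, so the correlations are not separate results. With SE minus CON the correlation was 0.30. Among the 63 miRNAs with a GC share of at most 42.9% the median SE minus CON was -0.15, against -0.07 for all 290, and 9 of the 63 were lower than miR-338-3p. The part of base composition in the values of miR-338-3p was not tested.

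Other miRNAs that act in the oligodendrocyte lineage were read from a list of 12 names, which the table holds as 11 entries. Of these 8 were tested and 0 passed by limma, with 4 on each side of 0 and a median SE minus CON of 0.02. miR-138-5p, which rises with miR-219 and miR-338 as oligodendrocytes differentiate, had means of 5703 ± 1165 RPM (SD, n = 3) after status epilepticus and 5150.2 ± 714 RPM (SD, n = 3) in controls. miR-23a-3p/23b-3p, which lowers lamin B1 and promotes myelination, had means of 577 ± 34.4 RPM and 554 ± 129 RPM (SD, n = 3). miR-7a-5p and miR-9-5p, which are also abundant in neurons, led the list at 19877 and 7288 RPM over the 6 libraries. miR-212-3p was the single tested entry of the list without overlap between groups, with means of 24.2 ± 2.64 RPM after status epilepticus and 40.7 ± 6.46 RPM in controls (SD, n = 3) and a limma adjusted p of 0.231. Groups did not overlap for 14.8% of all tested miRNAs.

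Marker miRNAs of other cell types were summed in the same libraries. The astrocyte list (5 of 5 tested, 0 passed) summed to 9058 to 9771 RPM in SE and 10324 to 14950.0 RPM in CON libraries, with its lowest CON value in CON replicate 2, as for miR-338-3p. The endothelial list (2 of 2 tested, 0 passed) summed to 4355 to 5240 RPM in SE and 4817 to 6715 RPM in CON libraries, with its lowest CON value also in CON replicate 2. The neuron list (10 of 10 tested, 0 passed) summed to 35770 to 40051 RPM in SE and 38757 to 44932 RPM in CON libraries. In the microglia and leukocyte list, 3 of 5 were tested and miR-155-5p fell, beside 1.03% of all tested miRNAs called, and the sums were 97.3 to 121 RPM in SE and 184 to 216 RPM in CON libraries. Without miR-155-5p the sums were 75.9 to 93.2 RPM in SE and 73.3 to 111 RPM in CON libraries, which overlap. The neuron and the microglia and leukocyte lists also had their lowest CON sum in CON replicate 2. The oligodendrocyte lineage list above summed to 31854 to 36858 RPM in SE and 32114 to 34163 RPM in CON libraries, which overlap. Its lowest CON sum was in CON replicate 3, and that of the red cell list was in CON replicate 1. Most of the oligodendrocyte lineage sum is miR-7a-5p, miR-9-5p and miR-138-5p, at 19877, 7288 and 5426.5 RPM over the 6 libraries. The neuron list also counts miR-9-5p, so the 2 sums are not separate. The red cell list summed to 16.8 to 32.2 RPM in SE and 19.1 to 29.5 RPM in CON libraries, with miR-144-3p and miR-144-5p at 0 in all 6. The part of these cell types in the values of miR-338-3p was not tested.

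Scaling without let-7 moved both tested members by about as much as the median of all tested miRNAs. The median SE minus CON of the 290 was -0.07 with RPM and 0.05 when reads were scaled without let-7 miRNAs and miR-98. Relative to that median miR-338-3p stood at -0.42 with RPM and -0.41 with the other scaling. For miR-219a-2-3p the relative values were 0.14 and 0.14. With quantile normalization they were -0.30 for miR-338-3p and 0.19 for miR-219a-2-3p.

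**Figure D5:**
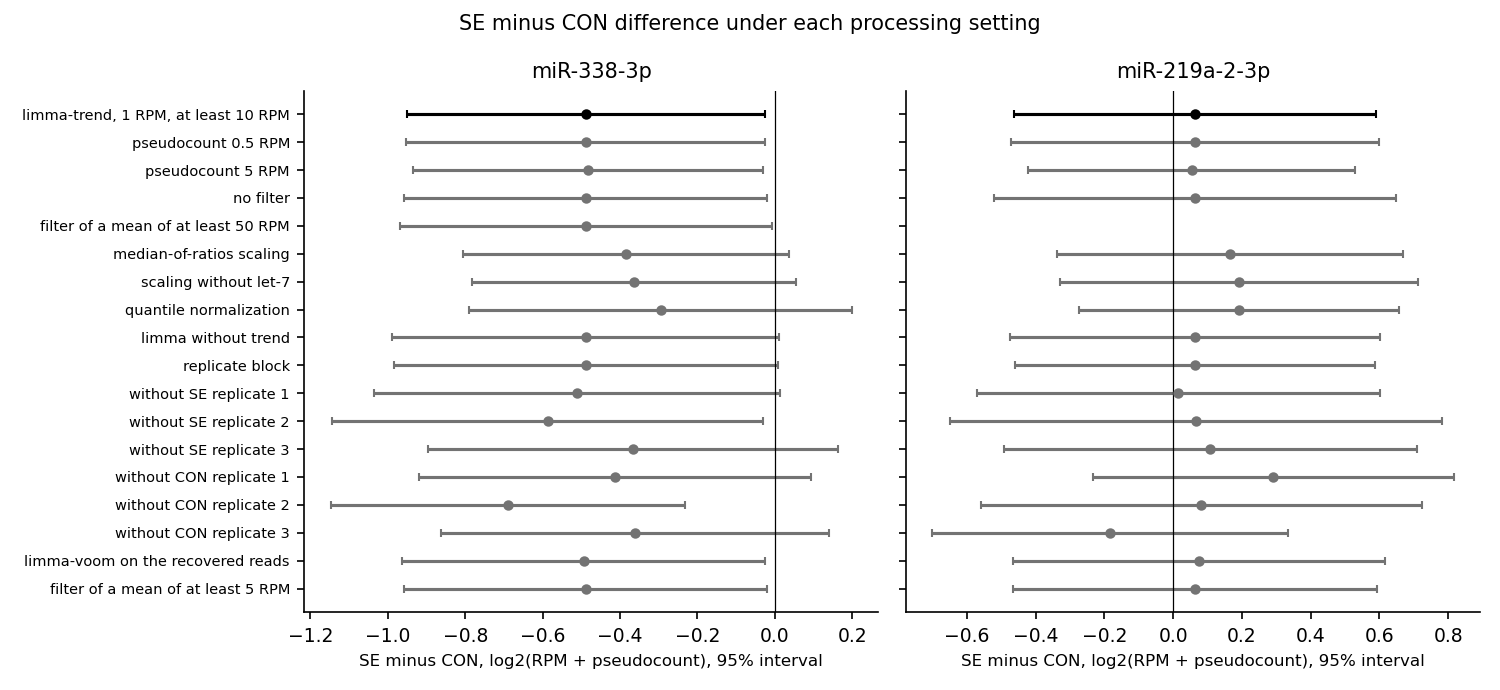
SE minus CON difference with its 95% interval (horizontal axes, log2 of RPM plus the pseudocount) for miR-338-3p, left, and miR-219a-2-3p, right, under each processing setting (rows). All settings shown put miR-338-3p below 0, from -0.69 to -0.29, and miR-219a-2-3p lies from -0.18 to 0.29.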

How the data were processed

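Per the labels' protocols, column-purified RNA was treated with DNase and sequenced from QIAseq miRNA libraries. Aligner, counter, miRNA annotation and the use of molecular identifiers are not given in the sources used here. The submitters' processing notes name mm9 and DESeq2, with no role. The authors' deposited miRNA table gives RPM, scaled to 1000000 per library over the listed miRNAs, in steps that correspond to whole reads within 0.01 if the lowest value of a library is 2 reads. The authors' deposited fold change table gives, per the file headers, a base mean (a signal of normalized counts), log2 fold changes, their standard errors, Wald scores and p-values for 775 miRNAs.

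Multiplying each base mean by 6 and subtracting the normalized SE reads gave the total of the CON group. That total was above 0 for 687 miRNAs, and each matched 1 of the 687 CON rows above 0 within a relative tolerance of 1e-05, with 1 candidate row for 597 and rows of identical reads for the other 90. SE minus CON was tested with limma-trend (limma 3.58.1, R 4.3.3), two-sided, on log2(RPM + 1) for the 290 miRNAs that reached a mean of 10 RPM, with Benjamini-Hochberg adjustment over all 290. limma was tested on simulated data of 290 miRNAs with an assumed spread and 60 changed per run. It recovered 22.3% of 1.5-fold changes and 89% of 2-fold changes. The CON mean of miR-338-3p was 1.42 times its SE mean, so most changes of that size may be missed. The floor is 3 reads. Samples were grouped by their titles. The titles share replicate numbers. Same-numbered libraries deviated from their group means with correlations of -0.42, -0.25 and 0.04, which do not show a pairing. They cannot exclude one, since deviations within a group cancel out and the correlations depend on each other. The libraries were taken as unpaired, and a fit with the replicate number as a block is given below. The members and lists were chosen with earlier results of these data known. Named miRNAs are the members, the 5 nearest profiles of each tested member, miR-3065 and up to 4 leading entries of a list, and miR-212-3p was chosen after its values were seen. Python 3.11.15, pandas 2.3.3, scipy 1.17.1 and matplotlib 3.10.9 were used.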

Additional observations from a re-analysis of the deposited data

How the results depend on the processing

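The settings tried were a pseudocount of 0.5 or 5 RPM, a filter of 50 RPM or none, 3 other scalings, limma without trend, the replicate number as a block and each library left out, and, chosen after seeing the data, limma-voom on the recovered reads, a filter of 5 RPM and the CON names as deposited. miR-338-3p had a value below 0 and an adjusted p above 0.05 under these 18, but with the CON names as deposited it was -0.03. With single libraries left out it ran from -0.69 (without CON replicate 2, adjusted p = 0.146) to -0.36, and under the other settings with names put back from -0.49 to -0.29. miR-219a-2-3p ran from -0.18 to 0.29 with single libraries left out and turned sign without CON replicate 3, and a filter of 50 RPM left it no value. The count of calls over all tested miRNAs ran from 3 to 6 with single libraries left out. The arm difference of miR-338 ran from -0.64 to -0.08 log2 units with single libraries left out.

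With the replicate block, limma gave -0.49 for miR-338-3p (adjusted p = 0.655), 0.06 for miR-219a-2-3p (adjusted p = 0.970) and 3 calls, and the paired arm difference was -0.44 with an exact sign-flip p of 0.5, so the block changed no call at an adjusted p under 0.05. It moved the unadjusted p of miR-338-3p from 0.0395 to 0.0536, past 0.05. With the CON names as deposited, the difference of miR-219a-2-3p was -0.17, the count of calls was 0 of 289 by limma (2 at an unadjusted p under 0.05), and the CON mean was 260.1 RPM for miR-338-3p and 0.256 RPM for miR-219a-5p, by construction of the step that puts names back. Depth limits miR-219a-5p, miR-219a-1-3p and miR-3065-5p, which rest on 7, 149 and 6 reads in all.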
